A study of Rattus norvegicus with 54 samples.

Results

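The genes described here are the alpha-1 adrenergic receptors Adra1a, Adra1b and Adra1d, the alpha-2 receptors Adra2a and Adra2b, the beta-1 receptor Adrb1, and the receptor kinases Grk2 and Grk5. They are 8 of the 40319 genes listed in the count tables, found by their symbols. The set was selected on the counts of Adra2a, which were high in infarcted rat hearts that carried a cell sheet compared with infarcted hearts without one. The comparison of cell sheet with untreated infarcts is therefore given as a description for all 8 genes, with no p-values and with nothing read from which members passed the threshold in it, and so is every comparison of Adra2a in cell sheet hearts.

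All animals were athymic F344/NJcl-rnu/rnu female rats of 8 weeks. These rats lack a thymus, and with it most T cells, so they accept human cells. One group was sham-operated. In the MI group the left anterior descending coronary artery was tied off permanently. The MI+Cell Sheet group had the same ligation followed by placement, on the surface of the infarcted wall, of a bi-level sheet of human cells, made of endothelial progenitor cells from blood and of smooth muscle cells derived from bone marrow stromal cells. Hearts were taken at 1 week and the tissue below the stitch was divided into an infarct zone (anterior wall), a border zone (lateral wall) and a remote zone (septum). Sham hearts were cut in the same way, so their "infarct" and "border" pieces come from those positions of hearts with no ligation. There were 6 hearts a group and 3 zones, which gives 54 poly(A) RNA-seq libraries. By the methods of the study the 6 libraries of a group come from separate animals, while their labels name them technical replicates. If they were not separate animals, the p-values measure technical spread only. The reads were aligned to the rat genome alone, so the values are for rat genes, and a read from a human transcript could be counted only where it aligned to a rat gene.

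Adrenergic receptors are the G protein-coupled receptors for noradrenaline and adrenaline. Alpha-1 receptors act through Gq and phospholipase C, alpha-2 receptors through Gi, which lowers cyclic AMP, and beta receptors through Gs, adenylyl cyclase and protein kinase A. In the heart the beta-1 receptor drives the rate and force of contraction. Alpha-1A and alpha-1B receptors are also made by cardiac muscle cells, and the alpha-2A receptor is best known as a brake on noradrenaline release from sympathetic nerve endings and on fat breakdown in adipocytes. Grk2 and Grk5 phosphorylate agonist-bound receptors, after which arrestins bind and the receptor is desensitised.

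The sequence immediately upstream of the transcription start is shown for 3 members, Adra2a because its level ranged most widely between groups, and Adrb1 and Adra1b because their levels followed each other across libraries. RefSeq's table for the GRCr8 build had such a sequence for 7 of the 8 members, and these coordinates belong to that build, whereas the counts were made on mRatBN7.2. Each run is the 250 bases before the start, 5′ to 3′ on the strand of the gene, with CG dinucleotides in capitals. Adra2a lies on the plus strand at chr1:263066530-263066779, Adrb1 on the plus strand at chr1:265776853-265777102, and Adra1b on the minus strand at chr10:28814348-28814597.
Adra2a: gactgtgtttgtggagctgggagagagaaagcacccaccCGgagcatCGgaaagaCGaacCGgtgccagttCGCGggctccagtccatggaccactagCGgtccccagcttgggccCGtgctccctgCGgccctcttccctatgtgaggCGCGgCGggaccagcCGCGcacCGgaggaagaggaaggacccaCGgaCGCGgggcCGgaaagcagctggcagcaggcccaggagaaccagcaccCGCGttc
Adrb1: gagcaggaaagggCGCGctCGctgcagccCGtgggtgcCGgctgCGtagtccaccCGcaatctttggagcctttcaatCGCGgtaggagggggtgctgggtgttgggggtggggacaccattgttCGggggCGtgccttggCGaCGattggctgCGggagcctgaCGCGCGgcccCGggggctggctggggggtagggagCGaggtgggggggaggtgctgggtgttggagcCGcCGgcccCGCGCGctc
Adra1b: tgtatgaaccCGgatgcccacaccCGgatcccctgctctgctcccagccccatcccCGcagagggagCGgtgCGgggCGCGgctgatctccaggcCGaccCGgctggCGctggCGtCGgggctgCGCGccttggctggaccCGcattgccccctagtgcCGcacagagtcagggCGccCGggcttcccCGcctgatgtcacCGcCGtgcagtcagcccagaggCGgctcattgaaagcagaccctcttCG
These windows hold 21, 24 and 23 CG dinucleotides for Adra2a, Adrb1 and Adra1b, where the median of 33469 rat promoter windows of this length was 5. The G+C content was 67.6% for Adra2a, 72% for Adrb1 and 70.8% for Adra1b, against a median of 51.2%. Of the other members, Adra1d had 16 CG dinucleotides, Grk5 18, Adra2b 22 and Grk2 48. A set of 5 motifs was searched on both strands, none of which contains another. The GC box GGGCGG occurred 8 times upstream of Grk2 and 2 times upstream of Adra2b (30.5% of all windows hold it). The CCAAT box, spelled by its name, and the core of the cyclic AMP response element, TGACG, occurred 1 time each upstream of Adrb1 (34% and 18.2% of all windows). The TATA box TATAAA (12.9% of all windows) and the E box motif CACGTG (5.59%) were found in none of the 7 windows. These matches describe letters in a window and not sites of binding.

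Each library held between 12699204 and 23397754 counts on genes. The unit of all levels is CPM (counts brought to a common library size, with TMM factors over all libraries), as the lowest, the median and the highest of the 6 libraries of a group. The libraries carried the cardiomyocyte markers expected of ventricle, and a pair of animals stood apart. In the 3 libraries of sham replicate 5 the summed level of 5 macrophage markers was 10970, 10918 and 6204 CPM (infarct, border, remote), against 214 to 539 CPM in the other sham libraries, and the summed level of 10 cardiomyocyte markers was 22591, 21494 and 31038 CPM, against at least 60302 CPM. In cell sheet replicate 1 the cardiomyocyte sum was 147 CPM in the border piece, against 8626 to 28105 CPM in the other border pieces with a sheet, and 21504 CPM in the remote piece, the lowest of its group. Beside the differences of the receptors and kinases, values without these animals are given where they bear on them.

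Adra2a was near the limit of detection in sham hearts, higher after infarction, and higher again in most infarct and border pieces that carried a cell sheet. In the infarct zone its level was 0 CPM at the lowest, 0.128 at the median and 0.154 at the highest in sham hearts. The corresponding values were 0.400, 1.12 and 2.80 CPM in MI hearts. They were 0.242, 6.89 and 20.5 CPM in cell sheet hearts. Every MI library lay above every sham library, and 5 of the 6 cell sheet libraries lay above every MI library, the exception being replicate 5.

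In the border zone Adra2a was 0, 0.115 and 0.317 CPM in sham hearts (lowest, median, highest) and 0.540, 1.25 and 3.62 CPM in MI hearts. Cell sheet hearts had 0.485, 19.5 and 48.0 CPM. Again 5 of 6 cell sheet libraries exceeded all MI libraries, and here the exception was replicate 3, at a level below every MI border piece. In the remote zone the values were low in all groups, with medians of 0.135 CPM in sham, 0.228 in MI and 0.386 in cell sheet hearts. Only 1 of the 6 remote pieces with a sheet, replicate 4 at 2.70 CPM, exceeded all remote MI pieces, whose highest value was 0.838 CPM.

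**Figure D1:**
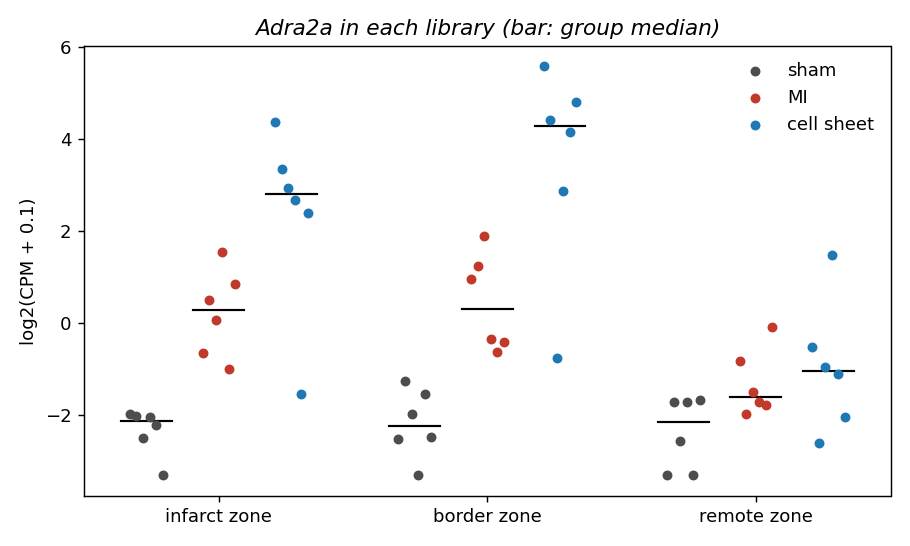
Adra2a level in CPM (vertical axis, log scale with an offset of 0.1 CPM added) in every library, by zone and group, with 1 point per library and a bar at the group median. The medians in the infarct zone were 0.128, 1.12 and 6.89 CPM in sham, MI and cell sheet hearts, and those in the border zone 0.115, 1.25 and 19.5 CPM.

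The difference between MI and sham hearts was tested for Adra2a although it shares the MI libraries with the comparison that chose the gene. The mean in the infarct zone was 1.28 ± 0.888 CPM in MI and 0.105 ± 0.059 CPM in sham hearts (SD, n = 6 each), and an exact two-sided permutation test gave p = 0.00216, the smallest that 6 against 6 libraries allow (adjusted over the 3 zones, 0.00325). The libraries summed to 172 counts in MI and 9 in sham, a depth-adjusted ratio of 12.04 with a counting interval of 6.20 to 26.8. In the border zone the means were 1.60 ± 1.22 and 0.143 ± 0.118 CPM (SD, n = 6 each), with the same exact permutation p of 0.00216, adjusted 0.00325. There the 195 counts in MI against 13 in sham gave a ratio of 11.6 with an interval of 6.63 to 22.2. Adra2a thus rose in both zones. In the remote zone the means were 0.349 ± 0.263 and 0.114 ± 0.104 CPM (SD, n = 6 each), the groups overlapped and the exact permutation p was 0.0541, from 32 counts against 10. The intervals cover counting error only.

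A fold change for the same comparison comes from edgeR's quasi-likelihood test with no filter on low counts, since the usual filter removed Adra2a when MI was set against sham. It gave log2 differences of 3.49 (SE 0.61, adjusted p = 0.00143) for infarct pieces, 3.42 (SE 0.68, adjusted p = 0.00474) for border pieces and 1.58 (SE 0.80, adjusted p = 0.231) for remote pieces. By the same unfiltered test, the effect of MI in the infarct zone minus that in the remote zone was 1.70 (SE 1.11, adjusted p = 0.434), and border minus remote 1.66 (SE 1.17, adjusted p = 0.624), so a difference between zones was not shown. Within MI hearts the infarct piece had more Adra2a than the remote piece of the same heart in 6 of 6 hearts and the border piece in 5 of 6. The exact permutation p-values within hearts were 0.03125 and 0.0625 (n = 6), both 0.0625 after adjustment, and 0.03125 is the smallest that 6 pairs allow.

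With the cell sheet, the mean Adra2a level was 6.49 times that of MI hearts in infarct pieces, 12.8 times in border pieces and 2.04 times in remote pieces. Against sham hearts the ratios of means were 78.9, 143 and 6.22. The fitted log2 difference from MI hearts was 2.69 (SE 0.74) for infarct pieces and 3.68 (SE 0.83) for border pieces, and among remote pieces the gene did not pass the filter. Without cell sheet replicate 1, the library with the highest Adra2a in both zones, the fitted values were 2.20 and 3.23. Within cell sheet hearts Adra2a was 3.68 log2 units (SE 0.93) higher in the infarct than in the remote piece and 4.79 (SE 1.05) higher in the border piece. Whether the difference with the sheet differs between zones was not tested.

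Among the marker sums that moved with Adra2a in the border zone were those of adipocytes and of mesothelium. A sum was taken of 8 adipocyte markers, among them Adipoq, Plin1, Lep, Cfd, Lipe and Pparg. The summed level was 82.2 to 126 CPM in sham border pieces and 115 to 343 CPM in MI border pieces. In cell sheet replicates 1 to 6 it was 1343, 503, 75.6, 135, 881 and 1683 CPM, and Adra2a in the same libraries was 48.0, 21.2, 0.485, 7.26, 17.8 and 28.1 CPM. The 4 libraries with an adipocyte sum above 500 CPM were thus the 4 with the highest Adra2a, and the library with the lowest sum had the lowest Adra2a. Retn was the marker listed at 0 in all sham infarct and border pieces, and no adipocyte marker was at 0 throughout any MI or cell sheet group. The summed level of 4 markers of mesothelium, the outer lining of the heart, was 26.0 to 257 CPM in sham and 68.3 to 470 CPM in MI border pieces. With the sheet it was 612, 418, 44.2, 218, 242 and 523 CPM in replicates 1 to 6, which puts these 6 libraries in the same order as Adra2a does. No mesothelial marker was at 0 throughout any group. Adipocytes and mesothelium were not alone in this order. The sum of 5 macrophage markers was 4406, 2050, 1535, 2000, 1838 and 2647 CPM with the sheet in replicates 1 to 6. That of 5 endothelial markers was 1219, 1032, 928, 951, 957 and 1027 CPM. The cardiomyocyte sum ran nearly the other way, with 147, 21558, 28105, 22384, 20343 and 8626 CPM.

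In the infarct zone the adipocyte sum had a narrower range, 125 to 320 CPM with the sheet against 126 to 314 CPM in MI hearts and 88.9 to 142 CPM in sham hearts, while Adra2a reached 20.5 CPM. The summed level of 7 fibroblast markers was 19143 to 44959 CPM in infarct pieces with a sheet, 8326 to 24370 CPM in MI and 2683 to 3782 CPM in sham hearts. The mesothelial sum was 74.1 to 544 CPM with the sheet, 171 to 285 CPM in MI and 44.8 to 144 CPM in sham infarct pieces. The part that adipocytes, mesothelium, fibroblasts or other cell types have in the Adra2a values was not tested. As in any bulk tissue, more cells of a type and more RNA per cell cannot be told apart, here and in the results that follow.

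**Figure D2:**
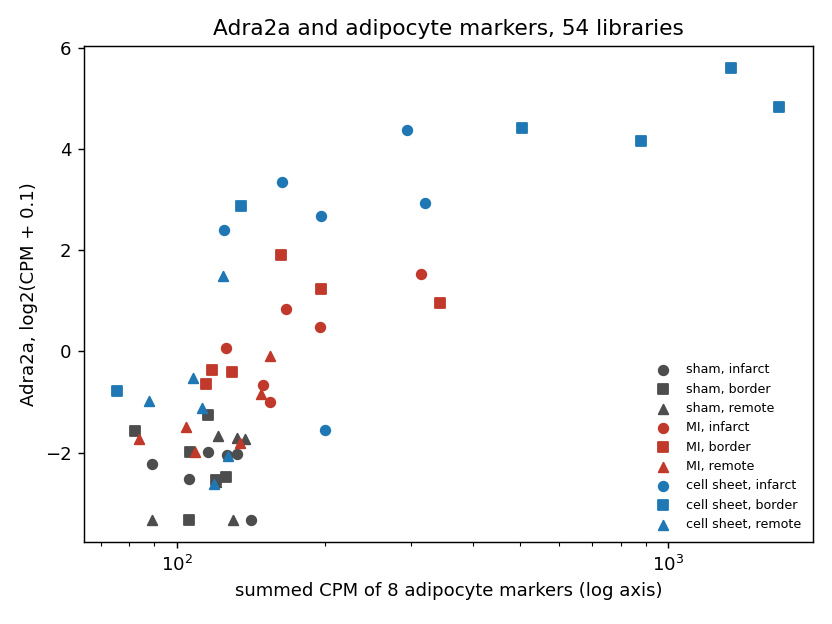
Adra2a level (vertical axis, with an offset of 0.1 CPM added) against the summed level of 8 adipocyte markers (horizontal axis), both in CPM on log scales, with 1 point for each of the 54 libraries. Among border pieces with a cell sheet, the 4 libraries with an adipocyte sum between 503 and 1683 CPM had Adra2a between 17.8 and 48.0 CPM, and the other 2 had 0.485 and 7.26 CPM.

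Across all 54 libraries, the genes whose levels followed Adra2a most closely among 13300 genes were Slc26a2, a sulfate transporter needed for cartilage matrix (Spearman's rho 0.877), Ephb2, an ephrin receptor (0.872), Mfap2, a microfibril protein (0.870), Scrn1 (0.870) and RGD1566401 (0.869). With the group means taken out, these correlations were between 0.57 and 0.64. The rho of Adra2a with the fibroblast sum was 0.836 (0.476 within groups), with the adipocyte sum 0.622 (0.500 within groups), with the mesothelial sum 0.639 (0.410 within groups) and with that of 6 smooth muscle and pericyte markers 0.643 (0.072 within groups). Not every marker of a list went with its sum. Of the fibroblast markers, Col1a1 had 0.836 (0.493 within groups), Dcn 0.421 (-0.081 within groups) and Tcf21 -0.148 (-0.413 within groups). Of the smooth muscle and pericyte markers, Tagln had 0.757 (0.290 within groups), Kcnj8 -0.354 (-0.295 within groups) and Abcc9 -0.452 (-0.415 within groups). The rho of Adra2a was -0.758 with the cardiomyocyte sum (-0.488 within groups) and -0.777 with the sum of 3 brown adipocyte markers (-0.454 within groups). That last sum followed mainly Cidea, which alone had -0.777 (-0.461 within groups). Cidea had a rho of 0.798 with Adrb1. Elovl3 was at 0 throughout all infarct and border groups, and both Ucp1 and Elovl3 were at 0 in MI remote pieces. The adipocyte markers abundant enough to be ranked did not all follow their sum. Adra2a had a rho of 0.791 with Cfd (0.604 within groups). With Lipe it had -0.409 (-0.199 within groups) and with Pparg -0.223 (0.020 within groups). These correlations are descriptions over libraries that share hearts and depth.

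Adra2b, the other alpha-2 receptor of the set, stayed low everywhere, between 0.437 and 2.32 CPM. It passed the test in none of the main comparisons in which it was tested. Under 2 alternatives it was called in MI against sham infarct pieces. These were a single fit of all 54 libraries (9182 of 17743 genes called) and plain library sizes in place of TMM factors (8322 of 15758). Its medians in the infarct zone were 0.912 CPM in sham, 1.23 in MI and 1.30 in cell sheet hearts, with overlapping groups. The log2 difference of MI from sham was 0.74 (SE 0.38, adjusted p = 0.118) in the infarct zone and -0.43 (SE 0.32, adjusted p = 0.346) in the remote zone. By an edgeR interaction test these effects differed by 1.19 (SE 0.52, adjusted p = 0.0986). Adra2c, the third alpha-2 receptor, did not exceed 1.03 CPM in any library.

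Adrb3, the beta receptor of adipocytes, was at 0 in all sham infarct and border libraries. In border pieces with a sheet it was 11.5, 3.57, 0.194, 0.0874, 14.0 and 24.1 CPM in replicates 1 to 6, and the 2 libraries with almost none were those with the lowest Adra2a. Against a floor of 3 counts over the sham group, the border level with the sheet was at least 266-fold higher and that of MI hearts at least 5.68-fold higher. In the infarct zone the bounds were at least 25.9-fold with the sheet and at least 8.61-fold in MI hearts. All these bounds use counts pooled over a group and leave out the spread between its libraries. The border libraries at 0.194 and 0.0874 CPM were not far above the border floor of 0.0335 CPM.

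The alpha-1 receptors and the beta-1 receptor fell together after infarction. Adra1a in the infarct zone was 55.3, 151 and 199 CPM in sham hearts (lowest, median, highest) and 15.9, 31.3 and 72.5 CPM in MI hearts. Adrb1 was 8.59, 17.8 and 19.4 CPM in sham and 1.24, 3.92 and 8.12 CPM in MI hearts. For Adrb1 every MI library lay below every sham library, and for Adra1a the groups overlapped only through sham replicate 5.

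Between MI and sham infarct pieces edgeR called 49.9% of 15758 genes changed at an adjusted p under 0.05, and 27.2% changed downward. Of the 7 members tested, 4 were called and all were lower. The log2 difference was -1.92 for Adra1a (SE 0.44, adjusted p = 0.00459), -1.76 for Adra1b (SE 0.50, adjusted p = 0.0125), -1.95 for Adra1d (SE 0.50, adjusted p = 0.00784) and -1.78 for Adrb1 (SE 0.41, adjusted p = 0.00472). The members tested had a median of -1.76 and all genes one of -0.02. These calls held when any single library was left out, and without sham replicate 5 the differences were -2.09, -1.94, -1.95 and -1.91 in the same order.

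Adra1b, which couples to Gq like the other alpha-1 receptors, had 22.9, 67.9 and 89.1 CPM in sham and 6.75, 10.9 and 42.2 CPM in MI infarct pieces. Adra1d, known mostly from arteries, had 4.37, 5.79 and 7.31 CPM in sham and 0.229, 1.30 and 3.61 CPM in MI. The Adra1d groups did not overlap, whereas those of Adra1b did. RefSeq lists a long non-coding RNA that overlaps Adra1b. Whether counting used the strand is not given in the sources used here, so reads of that gene and of Adra1b may not have been told apart.

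For border pieces the background was 41.7% of genes called and 23.2% called lower, and the same 4 members fell. Adra1a was 45.2, 160 and 210 CPM in sham and 10.9, 57.5 and 84.6 CPM in MI hearts, a log2 difference of -1.54 (SE 0.52, adjusted p = 0.0313). The differences of Adra1b, Adra1d and Adrb1 were -1.72, -1.37 and -1.63 (SE 0.49, 0.42 and 0.50), with adjusted p-values of 0.0161, 0.0214 and 0.0219. The call of Adra1a was lost when MI replicate 1 or 3, or sham replicate 1, 3, 4 or 6, was left out (adjusted p between 0.0514 and 0.0657), and that of Adra1d was lost without sham replicate 3 or 4 (both 0.0509). Without sham replicate 5 the differences of Adra1a, Adra1b, Adra1d and Adrb1 were -1.73, -1.90, -1.44 and -1.81.

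Among remote pieces 25.8% of genes were called and 14.2% were called lower. Adra1a was 121, 236 and 287 CPM in sham and 78.7, 118 and 137 CPM in MI hearts, and all MI libraries except 2 were below every sham library. Adrb1 was 18.2, 25.8 and 31.6 CPM in sham and 10.9, 14.2 and 19.5 CPM in MI. The log2 differences were -0.99 for Adra1a (SE 0.19, adjusted p = 0.00320), -0.80 for Adra1b (SE 0.22, adjusted p = 0.0178) and -0.79 for Adrb1 (SE 0.17, adjusted p = 0.00609), and these were called whichever library was left out, with -1.12, -0.92 and -0.86 without sham replicate 5. Adra1d had -0.79 with a larger error (SE 0.38, adjusted p = 0.144). In a single fit of all 54 libraries, where the spread is shared with the infarct and border pieces, the 3 calls were lost (adjusted p = 0.239, 0.3502 and 0.325).

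**Figure D3:**
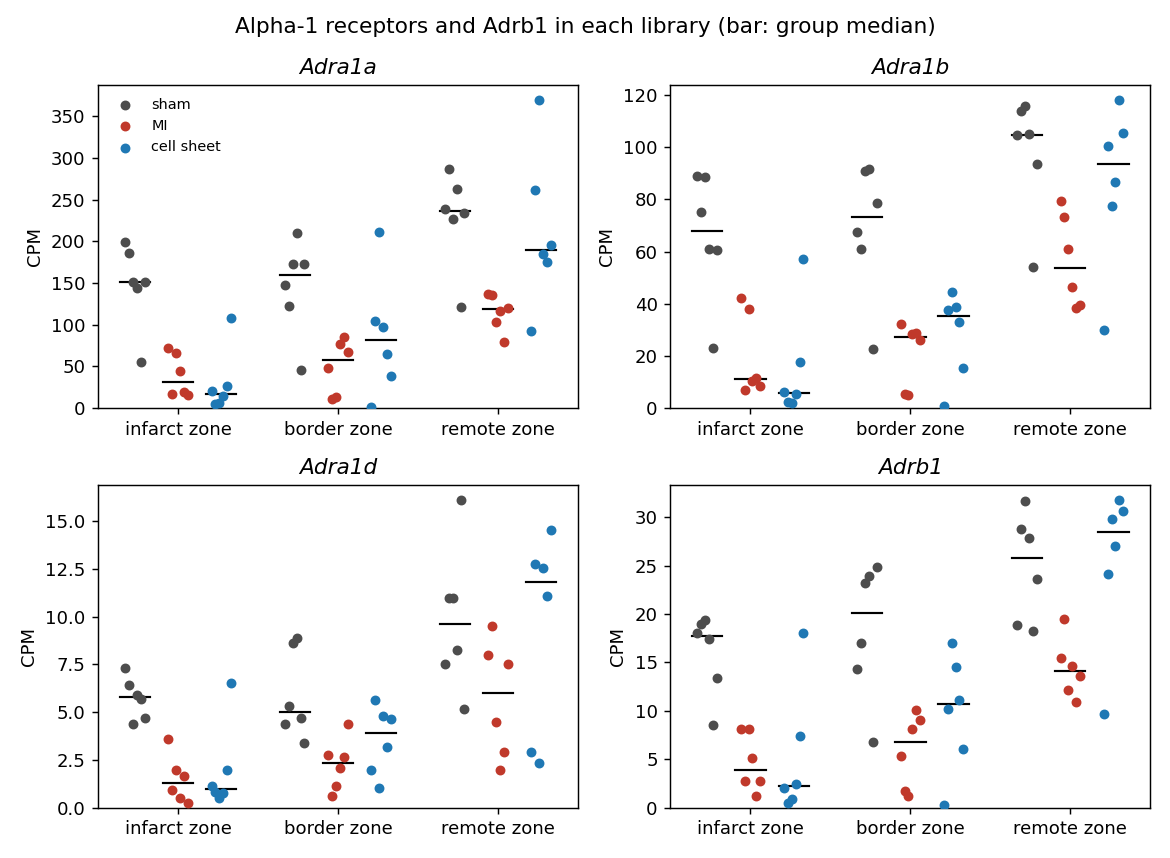
Levels of Adra1a, Adra1b, Adra1d and Adrb1 in CPM (vertical axes, linear scale) in every library, by zone and group, with 1 point per library and a bar at the group median. In the infarct zone the Adra1a medians were 151, 31.3 and 17.1 CPM in sham, MI and cell sheet hearts, and the Adrb1 medians 17.8, 3.92 and 2.24 CPM.

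Cardiomyocyte markers fell alongside these receptors. The median log2 difference of 10 such markers between MI and sham hearts was -1.79 in infarct pieces, -1.55 in border pieces and -0.71 in remote pieces, with 9, 9 and 6 of the 10 called lower. Their summed level was 22591 to 74650 CPM in sham and 3124 to 41282 CPM in MI infarct pieces, and no cardiomyocyte marker was at 0 throughout any group. Per 1000 CPM of that sum, Adrb1 had a median of 0.270 CPM in sham, 0.395 in MI and 0.590 in cell sheet infarct pieces. Among remote pieces these medians were 0.411, 0.363 and 0.471 CPM. For Adra1a they were 2.47, 3.17 and 5.25 CPM in the infarct zone and 3.64, 2.95 and 3.84 CPM in the remote zone. Between sham and MI the order of the medians of both genes thus differed between the zones on this scale. Adra1b had 1.06, 1.28 and 1.74 CPM in infarct pieces and 1.13, 1.06 and 1.74 CPM in border pieces, and Adra1d 0.0960, 0.0839 and 0.348 CPM in infarct pieces. The rho of Adrb1 with the cardiomyocyte sum over the 54 libraries was 0.887 (0.864 within groups). The part that a smaller share of muscle cells has in the receptor differences was not tested.

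Genes near to Adrb1 in pattern were Mypn, a sarcomere protein (rho 0.970), Tns1 (0.969), Nebl, a protein of the Z-disc (0.968), and Ryr2, the calcium release channel (0.968). Within groups they were between 0.91 and 0.94. Among the members, the rho of Adra1b was 0.956 with Adrb1 and 0.948 with Adra1a, and that of Adra1a with Adrb1 was 0.947.

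Cell sheet hearts were then compared with sham hearts, the same sham libraries that MI hearts were compared with. In the infarct zone, where 57.9% of genes were called and 29.2% were called lower, 3 of the 7 members tested were lower. Adra1a was 4.32, 17.1 and 108.2 CPM with the sheet and 55.3, 151 and 199 CPM in sham hearts, a log2 difference of -2.31 (SE 0.70, adjusted p = 0.0146). Adra1b differed by -2.16 (SE 0.77, adjusted p = 0.0313) and Adra1d by -1.55 (SE 0.55, adjusted p = 0.0303). Adrb1 was 0.475, 2.24 and 18.0 CPM with the sheet, and its difference of -1.63 (SE 0.72) had an adjusted p of 0.0681. Without sham replicate 5 the Adrb1 value was -1.78 (adjusted p = 0.0462). The median difference of the 10 cardiomyocyte markers was -2.51 in this zone, and its part in these values was not tested.

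Cell sheet replicate 6 held the highest level of all 4 receptors in this group, and its cardiomyocyte sum was 33396 CPM against 830 to 14163 CPM in the other infarct pieces with a sheet. The call of Adra1a held with any library left out. That of Adra1b was lost without sham replicate 1, 2 or 3 or cell sheet replicate 1, 2, 4 or 5 (adjusted p between 0.0501 and 0.0639). That of Adra1d was lost without sham replicate 1 or 2 or cell sheet replicate 1, 2, 3, 4 or 5 (adjusted p between 0.0511 and 0.0636).

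Among border pieces 43.6% of genes were called but 0 of the 7 members tested, by edgeR, at an unadjusted p under 0.05 and by DESeq2 alike. Adra1a was 1.55, 81.0 and 211 CPM with the sheet, a difference from sham of -0.77 (SE 0.71, adjusted p = 0.396). Adrb1 was 0.265, 10.7 and 17.04 CPM with the sheet, a difference of -0.91 (SE 0.62, adjusted p = 0.247). The lowest value of both genes was that of cell sheet replicate 1. Without that animal 39.4% of genes were called and 1 member, Adra1b at -1.03 (SE 0.35, adjusted p = 0.0354), while Adra1a had -0.51 and Adrb1 -0.65. The median difference of the cardiomyocyte markers from sham was -1.67 with all libraries and -1.40 without cell sheet replicate 1. Among remote pieces 0.0066% of genes were called by edgeR, and again 0 of 7 members by edgeR, unadjusted and by DESeq2. The remote differences of Adra1a, Adra1b, Adra1d and Adrb1 lay between -0.20 and 0.02 with standard errors of 0.24 to 0.44, and without cell sheet replicate 1 between -0.03 and 0.18. Without sham replicate 5, 70% (infarct), 61.6% (border) and 0.111% (remote) of genes were called.

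The values of cell sheet against MI hearts are given as a description. Among infarct pieces edgeR called 0% of genes and 0 members (1341 genes and 1 member at an unadjusted p under 0.05, and 85 genes and 1 member by DESeq2). The log2 differences of the members other than Adra2a were between -0.39 and 0.38. For border pieces 18% of genes were called, and Adra2a, whose place among them the choice of the set fixed, was the 1 member. Adra1a differed there by 0.80 (SE 0.79) and Adrb1 by 0.76 (SE 0.70), and without cell sheet replicate 1 by 1.07 and 1.02. For remote pieces, with 17.1% of genes called, Adra1a differed by 0.87 (SE 0.26) and Adrb1 by 0.81 (SE 0.24), the 2 members past the threshold. The number past it was 0 in 9 of the 12 fits that left out 1 library, 0 with the replicate block and 0 in the fit of all 54 libraries. Nothing is read from these counts, since the set was chosen on this comparison. Without cell sheet replicate 1 the values were 1.03 for Adra1a, 0.98 for Adrb1 and 0.78 for Adra1b. The remote medians were 190 CPM with the sheet, 118 in MI and 236 in sham for Adra1a, and 28.4, 14.2 and 25.8 CPM for Adrb1. The median cardiomyocyte sum in the same pieces was 56268 CPM with the sheet, 38542 in MI and 68904 in sham hearts, and the median difference of its 10 markers between cell sheet and MI was 0.38, or 0.53 without cell sheet replicate 1. The median fibroblast sum was 2970 CPM with the sheet and 8815 in MI, and the macrophage sum 346 and 1625 CPM. The part of these cell types in the remote values was not tested. The median difference of 8 cardiomyocyte targets of protein kinase A in this zone was 0.46.

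**Figure D4:**
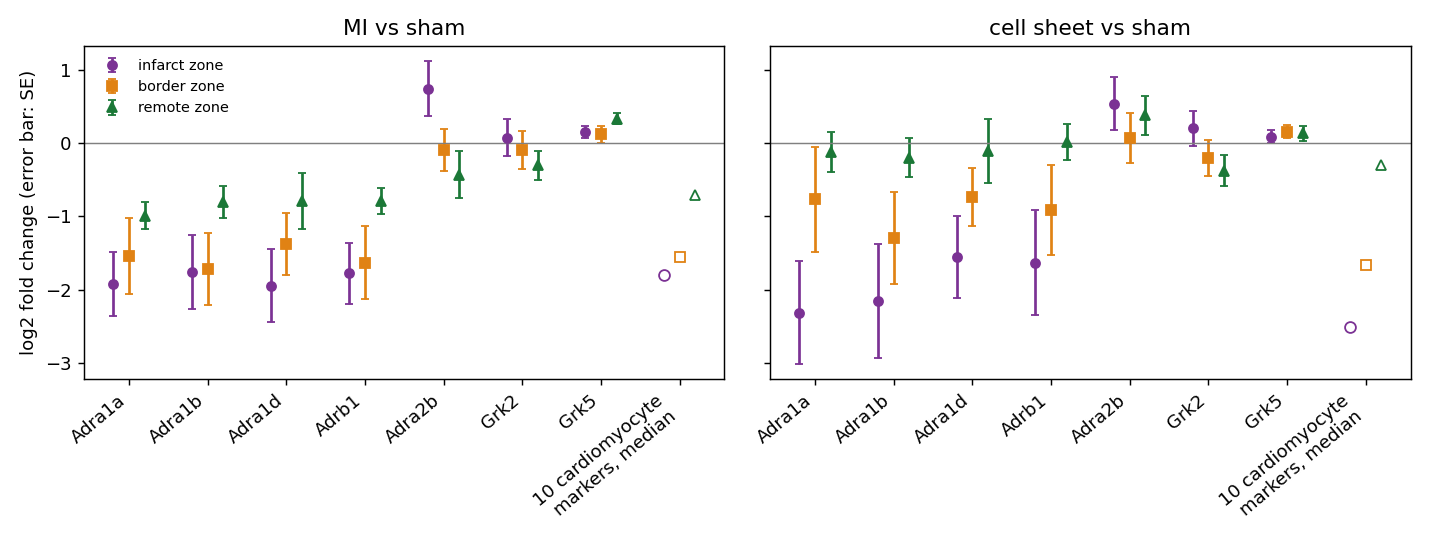
Log2 fold changes of members that passed the filter in MI and in cell sheet hearts against sham hearts, by zone. Bars are 1 standard error. Adra1a, Adra1b, Adra1d and Adrb1 lie between -1.95 and -1.37 in MI against sham in the infarct and border zones.

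Pieces of the same heart were compared with the animal as a block. In sham hearts the 4 receptors were lower in the anterior and lateral wall than in the septum. In the anterior (infarct position) piece, where 32.4% of genes were called, Adra1a was lower by a log2 difference of -0.67 (SE 0.09, adjusted p = 6.52e-05), Adra1b by -0.62 (SE 0.10, adjusted p = 0.000272), Adra1d by -0.73 (SE 0.19, adjusted p = 0.00797) and Adrb1 by -0.65 (SE 0.11, adjusted p = 0.000455). In the lateral (border position) piece, with 25.7% of genes called, the differences were -0.74, -0.58, -0.74 and -0.50 in the same order (adjusted p = 0.00298, 0.00534, 0.0208 and 0.0282). The border calls of Adra1d and Adrb1 were lost without sham replicate 1, 2 or 5 (adjusted p between 0.0545 and 0.0800). Without sham replicate 5 the differences were -0.58, -0.51, -0.55 and -0.56 in the anterior and -0.60, -0.45, -0.50 and -0.33 in the lateral piece. The cardiomyocyte markers had a median difference from the septum of -0.32 and -0.24 in these pieces, and of -0.22 and -0.13 without that animal.

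In MI hearts the infarct piece was lower than the septum as well, with 36.4% of genes called. Adra1a differed by -1.81 (SE 0.34, adjusted p = 0.00938), Adra1b by -1.82 (SE 0.33, adjusted p = 0.00935), Adra1d by -2.06 (SE 0.53, adjusted p = 0.0195) and Adrb1 by -1.84 (SE 0.35, adjusted p = 0.00965). For the border piece of MI hearts edgeR called 0% of genes and 0 of 8 members (5943 genes and 5 members at an unadjusted p under 0.05, and 4651 genes and 5 members by DESeq2). The 4 receptors there differed from the septum by -1.65 to -1.31, with adjusted p-values of 0.0776 to 0.105. The cardiomyocyte markers of MI hearts differed from the septum by a median of -1.64 in the infarct and -1.33 in the border piece.

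In cell sheet hearts the contrast of infarct piece and septum was -3.49 for Adra1a (SE 0.79, adjusted p = 0.00776), -3.41 for Adra1b (SE 0.68, adjusted p = 0.00508), -2.48 for Adra1d (SE 0.46, adjusted p = 0.00424) and -3.05 for Adrb1 (SE 0.67, adjusted p = 0.00706), against 62.8% of genes called. The border pieces differed by -1.83, -1.97, -1.27 and -1.68, with adjusted p-values of 0.0403, 0.0152, 0.00294 and 0.0197 and 56.4% of genes called. The border call of Adra1a was lost without cell sheet replicate 2, 4, 5 or 6 (adjusted p between 0.0534 and 0.101), and that of Adrb1 without replicate 5 or 6 (0.0504 and 0.0562). Without cell sheet replicate 1 the values were -3.82, -3.66, -2.70 and -3.21 for the infarct piece and -1.32, -1.55, -1.42 and -1.31 for the border piece. In these hearts the median cardiomyocyte sum was 2740 CPM in infarct pieces, 20951 in border pieces and 56268 in the septum. The markers had a median difference from the septum of -3.56 (infarct) and -2.07 (border), or -3.90 and -1.51 without cell sheet replicate 1. The part of muscle content in the zone differences of the receptors was not tested.

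Whether the effect of MI differed between zones was tested as an interaction. Between infarct and remote zone, 28.9% of genes were called. The MI effect was more negative in the infarct zone by -1.12 for Adra1a (SE 0.37, adjusted p = 0.0347), -1.17 for Adra1b (SE 0.37, adjusted p = 0.0295) and -1.15 for Adrb1 (SE 0.38, adjusted p = 0.0339), and Adra1d had -1.31 (SE 0.56, adjusted p = 0.0931). These 3 calls were fragile. Adra1a lost its call without MI replicate 2, 5 or 6 or sham replicate 1, 2, 3, 4 or 6 (adjusted p between 0.0531 and 0.0740), Adra1b without MI replicate 4 or 6 or sham replicate 1, 2, 3 or 6 (0.0522 to 0.0619), and Adrb1 without MI replicate 2, 5 or 6 or sham replicate 1, 2, 3, 4 or 6 (0.0516 to 0.0720). Between border and remote zone edgeR called 0% of genes and 0 members (3995 genes and 0 members unadjusted, 1475 genes and 0 members by DESeq2). Without sham replicate 5, 24.8% and 0% of genes were called. The same interaction had a median of -1.40 over the 10 cardiomyocyte markers for infarct against remote zone (-1.51 without sham replicate 5) and -1.06 for border against remote zone, and the part of muscle content in the interaction of the receptors was not tested.

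Scaling moved the balance of calls but not the direction of the 4 receptors. With TMM factors 45.5%, 44.2% and 45.1% of the genes called in MI against sham (infarct, border, remote) were higher, and with plain library sizes 67.1%, 64.1% and 68.6%. The shares in cell sheet against sham were 49.5% and 46.8% (infarct, border) and became 66.3% and 71.2%, and in cell sheet against MI 47.2% and 60.2% (border, remote) became 57.3% and 48.5%. Against the septum, 50.3% in MI infarct pieces became 63.2%, and 50.1% and 51.8% in cell sheet infarct and border pieces became 64.5% and 68.4%. In the infarct interaction 47.0% became 62.5%.

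Grk2, also known as beta-adrenergic receptor kinase 1, was the member on which a single animal weighed most. In sham hearts its level was 64.4, 68.0 and 177 CPM in infarct pieces, 71.9, 73.0 and 204 CPM in border pieces and 69.6, 76.8 and 170 CPM in remote pieces. The highest value was that of sham replicate 5 in each case, the animal with the high macrophage sum. MI hearts had 76.1, 90.6 and 104 CPM in the infarct zone, above the other 5 sham libraries.

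With all libraries the log2 difference of MI from sham was 0.07 for infarct pieces (SE 0.25, adjusted p = 0.819), -0.10 for border pieces (SE 0.26, adjusted p = 0.784) and -0.30 for remote pieces (SE 0.20, adjusted p = 0.286). Without sham replicate 5 it was 0.43 in the infarct zone (SE 0.10, adjusted p = 0.00240, with 64.8% of genes called) and 0.28 in the border zone (SE 0.10, adjusted p = 0.0251, with 60.8% called). In the remote zone it was then -0.02 (SE 0.08, adjusted p = 0.811, with 46.5% called). Cell sheet hearts differed from sham in the infarct zone by 0.20 (SE 0.24, adjusted p = 0.472), or by 0.50 (SE 0.12, adjusted p = 0.00392) without that animal.

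Tests within hearts, and the interaction of treatment and zone, compare pieces of the same animal. The MI effect on Grk2 was higher in the infarct than in the remote zone by 0.41 (SE 0.11, adjusted p = 0.0157), a call that held whichever animal was left out and was 0.45 without sham replicate 5. In cell sheet hearts Grk2 was higher than in the septum by 0.40 in the infarct piece (SE 0.13, adjusted p = 0.0303) and by 0.23 in the border piece (SE 0.07, adjusted p = 0.0201). The first of these was lost without cell sheet replicate 2, 3, 4 or 5 (adjusted p between 0.0687 and 0.0813), the second without replicate 1, 2, 3 or 5 (0.0533 to 0.0669). In MI hearts the infarct piece had 0.27 (SE 0.10, adjusted p = 0.0657). The rho of Grk2 with the macrophage sum was 0.762 over the 54 libraries and 0.726 within groups. The part that macrophages have in its level was not tested.

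**Figure D5:**
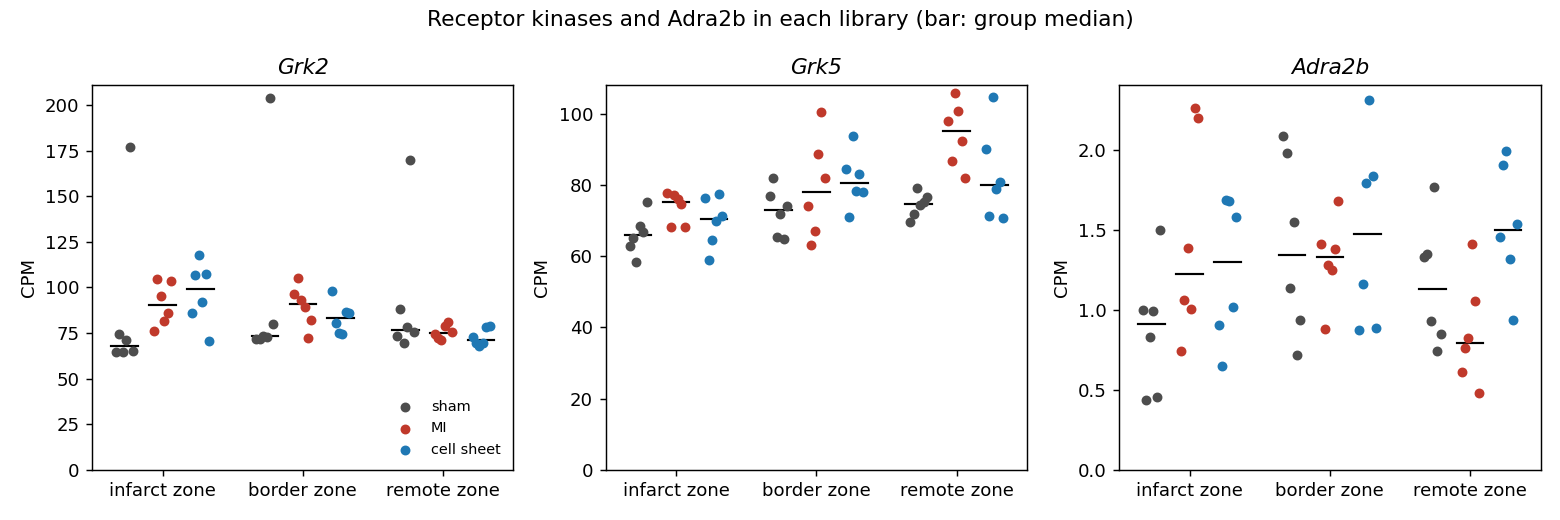
Levels of Grk2, Grk5 and Adra2b in CPM (vertical axes) in every library, by zone and group, with 1 point per library and a bar at the group median. Sham replicate 5 is the isolated high Grk2 value in each zone, at 177, 204 and 170 CPM.

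Grk5, the other kinase of the set, was the most evenly expressed member, between 58.4 and 106 CPM in all 54 libraries. In the remote zone it was 69.5, 74.8 and 79.3 CPM in sham and 81.9, 95.2 and 106 CPM in MI hearts, so that all MI libraries were above all sham libraries. The log2 difference was 0.34 (SE 0.08, adjusted p = 0.00745), and it was called with any library left out and in the fit of all 54 libraries. Cell sheet hearts had 70.9, 79.9 and 105 CPM in that zone, a difference from sham of 0.13 (SE 0.10, adjusted p = 0.704).

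In the infarct and border zones Grk5 differed between MI and sham hearts by 0.15 (SE 0.08, adjusted p = 0.116) and 0.12 (SE 0.12, adjusted p = 0.409). These values depend on the scaling. With plain library sizes in place of TMM factors the median of all genes moved up by 0.26 log2 units in infarct pieces, 0.19 in border pieces and 0.13 in remote pieces of MI against sham hearts, and Grk5 then had 0.42 (adjusted p = 0.00279) and 0.31 (adjusted p = 0.0289) in the first pair of zones. Against sham, cell sheet hearts had 0.36 (adjusted p = 0.00960) in the infarct and 0.43 (adjusted p = 0.00114) in the border zone on that scale, where the median moved by 0.26 and 0.27, in place of 0.09 and 0.16 with TMM factors (adjusted p = 0.401 and 0.167). Grk2 in the border zone turned from -0.10 to 0.072 in MI hearts and from -0.20 to 0.038 in cell sheet hearts, in both cases far from the threshold.

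Within MI hearts Grk5 was lower in the infarct piece than in the septum by -0.35 (SE 0.08, adjusted p = 0.0124). RefSeq lists a small nucleolar RNA that overlaps Grk5, and its reads could have been counted for either gene.

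The genes around the receptors were taken from lists of 80 genes of adrenergic signalling. Among infarct pieces 72 of them were tested between MI and sham hearts, of which 14 were higher and 27 lower, with a median of -0.29 against -0.02 for all genes. Of all genes 49.9% were called there and 27.2% were called lower. Of 9 G protein alpha subunits 4 were higher, among them the inhibitory Gnai1 (0.58, SE 0.19, adjusted p = 0.0207) and Gnai3 (0.56, SE 0.15, adjusted p = 0.00932), and 0 were lower. Of 5 other receptor kinases and arrestins 1 was higher, Arrb1 (0.55, SE 0.20, adjusted p = 0.0336), which binds phosphorylated receptors.

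Of 8 adenylyl cyclases, which make cyclic AMP, 2 were higher and 3 lower. Adcy3 rose by 1.25 (adjusted p = 0.00463) and Adcy4 by 0.68 (adjusted p = 0.00311), whereas Adcy1 had -3.05 (adjusted p = 0.00310) and Adcy5, a main isoform of heart muscle, -1.69 (adjusted p = 0.00339). Of 11 subunits and inhibitors of protein kinase A and cyclic AMP sensors 2 were higher, Prkar2b (0.71, adjusted p = 0.0138) and Pkig (0.25, adjusted p = 0.0159), and 5 lower, led by the inhibitor Pkia (-1.77, adjusted p = 0.00948) and the catalytic subunit Prkaca (-1.19, adjusted p = 0.00398). All 8 targets of that kinase in muscle were lower, with troponin I (Tnni3) at -2.32 (adjusted p = 0.0116) and phospholamban (Pln) at -2.11 (adjusted p = 0.00852). These last genes are also cardiomyocyte genes, whose markers had a median of -1.79 here.

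Of 12 phosphodiesterases, which break down cyclic nucleotides, 2 were higher, Pde3b (0.95, adjusted p = 0.0440) and Pde8a (0.36, adjusted p = 0.0159), and 6 lower, led by Pde3a (-1.45, adjusted p = 0.00214) and Pde4d (-0.995, adjusted p = 0.000993). Of 4 phospholipase C beta isoforms, the effectors of alpha-1 receptors, Plcb2 (2.25, adjusted p = 0.00581) and Plcb3 (0.65, adjusted p = 0.00656) were higher and Plcb4 was lower (-0.67, adjusted p = 0.0200). Of 6 regulators of G protein signalling 0 were higher and 1 lower, Rgs6 (-1.94, adjusted p = 0.0106). Of 8 genes of catecholamine synthesis, uptake and breakdown 3 were lower, led by the transporter Slc22a3 (-2.28, adjusted p = 0.00226) and by Ddc (-2.12, adjusted p = 0.0124).

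In the border zone 13 of 71 listed genes tested were higher and 27 lower between MI and sham hearts (41.7% of all genes called, 23.2% lower), and among remote pieces 4 and 18 of 70 (25.8% called, 14.2% lower). Between cell sheet and sham hearts, 17 of 71 were higher and 29 lower in the infarct zone (57.9% of all genes called, 29.2% lower), and 14 and 13 of 71 in the border zone (43.6% called). Of all genes called in that border comparison, 46.8% were higher.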

How the data were processed

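Left ventricular tissue of 18 rats was profiled as 54 libraries, 1 for each heart and zone. Per the study's methods the authors trimmed the reads and aligned them with STAR to mRatBN7.2. The deposited values are raw counts per gene symbol in 1 file a library. Which counter was run, and whether with strand, is not given in the sources used here. The last 5 lines of each file name no gene and were left out (17.0 to 42.8% of all counts). No pair of libraries of a group agreed within sampling noise.

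Groups were taken from the labels. The counts were tested with edgeR 4.0.16 in R 4.3.3 (limma 3.58.1), with the default filter on low counts, TMM factors, the quasi-likelihood F test and Benjamini-Hochberg adjustment over all genes tested, at an adjusted p under 0.05. Each treatment comparison used only its own 12 libraries. Zones were compared with the animal as a block, since by the study's methods the pieces came from the same heart. Standard errors are the log2 fold change divided by the square root of F. A gene that failed the filter has no such value. Adra2a in MI against sham was compared by exact permutation of the libraries. Levels are CPM with TMM factors over all 54 libraries, and correlations are Spearman's. The scripts were tested on simulated counts.

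The members, the gene lists and the marker lists were chosen with earlier results of these data known. All members are named. Of a pathway list the text names at most 4 genes, the 2 most raised and the 2 most lowered of those called in MI against sham infarct pieces, and the other adrenergic receptors, except for a few genes that are not reported here. The genes nearest to Adra2a and Adrb1 were ranked by rho among genes with a mean log2 CPM over 1. Alternatives were DESeq2 1.42.0, no filter, at least 10 counts in every library, no TMM factors, the replicate block, all libraries in 1 fit and each library left out.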

Additional observations from a re-analysis of the deposited data

Results flagged for a closer look

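In 10 of the 72 sets of 6 libraries of a member, 1 library lay far from the others by Dixon's criterion, which chance alone gives in about 1 in 20 sets. Of these, 5 were sham replicate 5. Grk2 in that animal was 177 CPM in the infarct, 204 in the border and 170 in the remote piece, where the other 5 sham libraries had 64.4 to 74.6, 71.9 to 79.7 and 69.6 to 88.2 CPM. In its remote piece Adra1a was 121 CPM (227 to 287 in the others) and Adra1b 54.2 CPM (93.5 to 116). These pieces also had the high macrophage and low cardiomyocyte sums given above, and their part in the values was not tested.

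Cell sheet replicate 6 stood apart in the infarct zone, with 108.2 CPM of Adra1a (4.32 to 26.1 in the others), 57.1 CPM of Adra1b (2.05 to 17.6) and 6.51 CPM of Adra1d (0.511 to 1.99), beside a cardiomyocyte sum of 33396 CPM (830 to 14163). Adrb1 in the remote piece of cell sheet replicate 1 was 9.67 CPM (24.2 to 31.8 in the others). Adra2a in the remote piece of cell sheet replicate 4 was 2.70 CPM (0.0636 to 0.594 in the others).

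The MI effect differed between infarct and remote zone by an edgeR interaction test for Adra1a (-1.12), Adra1b (-1.17), Adrb1 (-1.15) and Grk2 (0.41), all on the log2 scale. The first 3 were lost in 6 to 8 of the 12 fits that left out 1 animal, and that of Grk2 in 0 of 12.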

How the results depend on the processing

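Values of single members under an alternative were counted for members called in the main fit, and for Grk2 and Grk5 called or not. Cell sheet against MI was left out. Of the values counted, 839 kept direction and side of the threshold, 84 lost the call, 12 gained one and 14 changed sign. All 14 were small values of the kinases, the only members counted without a call. Sign changes and gained calls of uncalled receptors do not enter this count. Grk2 in MI against sham infarct pieces (0.07) was -0.00027 and -0.00075 without sham replicate 1 or 3, in a range of -0.00075 to 0.43 (without sham replicate 5) over all fits that left out 1 library. In border pieces (-0.10) it was 0.072 without TMM factors, 0.043 with the replicate block and -0.17 to 0.28 with 1 library left out, 0.28 being without sham replicate 5. In cell sheet against sham border pieces (-0.20) it was 0.038 without TMM factors and -0.27 to 0.15 with 1 library left out, 0.15 being without sham replicate 5. Between border piece and septum of sham hearts Grk2 ranged from -0.043 to 0.068 (-0.016, -0.043 and -0.016 without replicate 3, 5 or 6) and Grk5 from -0.079 to 0.0055 (0.0022 and 0.0055 without replicate 3 or 5). In cell sheet hearts Grk5 there was -0.013 by DESeq2 and ranged from -3.5e-05 (without replicate 6) to 0.034. The cause was not tested.

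With the replicate block the members called in MI against sham border pieces went from 4 to 0 (adjusted p between 0.0506 and 0.0626) and the genes from 6517 to 4193. The block gave 0 members in cell sheet against MI in the border (main 1) and remote (main 2) zones, with 1214 genes against 2922 and 2 against 2623, and changed no other count of members by treatment beyond 1.5 times. Across treatments, 1 or 2 of 6 same-numbered pairs correlated above 0.1, and 0 to 2 of 6 correlated best with their own number. Between infarct piece and septum, 6 (sham), 4 (MI) and 3 (cell sheet) of 6 pairs correlated above 0.1. Of these pairs 4, 4 and 1 correlated best with their own number. Between border piece and septum the values were 6, 2 and 4, and 5, 2 and 3. The animal block in MI and cell sheet hearts thus rests on the study's methods and shared numbers. Without the animal as a block, 0 members were called in sham infarct and border pieces against the septum (main 4 each, genes 1081 against 4878 and 307 against 3880). In MI border pieces 3 were called (main 0, genes 3409 against 0). In cell sheet border pieces 3 were called (main 6, genes 7468 against 8975), with Adra2a in both counts. With all 54 libraries in one fit 17743 genes were tested. The count of members was 1 in MI against sham remote (main 4, genes 3581 against 3952). It was 5 and 1 in cell sheet against sham infarct and border (main 3 and 0, genes 10458 and 8371 against 9078 and 6955). Adra2a, chosen for its level in cell sheet hearts, was among the 5 and was the 1. In cell sheet against MI remote the count was 0 (genes 2594 against 2623). DESeq2 gave 5 in MI border pieces against the septum (genes 4651 against 0) and 1 in cell sheet against MI infarct. No filter gave 1 (Adra2a) and no TMM factors 1 (Grk5) in cell sheet against sham border (genes 6668 and 7458 against 6955). A minimum of 10 counts, which removes Adra2a before the test, left 0 in cell sheet against MI border (genes 2957 against 2922). Genes called in cell sheet against sham remote were 1, but 220 by DESeq2, 183 in the fit of all libraries and 0 with the block, and in cell sheet against MI infarct 0, but 85 by DESeq2 and 6 in the fit of all libraries. The interaction of border and remote zone had 0 genes, and 1475 by DESeq2.

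With 1 library or animal left out, the members called in MI against sham ranged from 4 to 6 (infarct), 3 to 6 (border) and 4 to 4 (remote). Both counts of 6 came without sham replicate 5 and held Adra2a, with 64.8% and 60.8% of all genes called (main 49.9% and 41.7%). In cell sheet against sham the ranges were 1 to 6, 0 to 1 and 0 to 0. The 6 was again without sham replicate 5 and held Adra2a, with 70% of genes called (main 57.9%). The border 1 was Adra2a except without cell sheet replicate 1, where it was Adra1b. In cell sheet against MI, the comparison the set was chosen on, they were 0 to 0, 1 to 1 (Adra2a itself) and 0 to 3. Adra2a was chosen for its level in cell sheet hearts. Counts there that hold it say nothing about stability, nor do any in cell sheet against MI. Against the septum the members called ranged from 4 to 5 and 2 to 4 (sham infarct and border), 5 to 7 and 0 to 0 (MI) and 5 to 6 and 3 to 5 (cell sheet, Adra2a included). For the interactions the range was 1 to 4 (infarct) and 0 to 0 (border). Adra2a in cell sheet against MI ranged from 2.20 to 3.08 (infarct) and 3.23 to 4.10 (border). Its MI minus sham mean ranged from 0.869 to 1.35 CPM (infarct), 1.05 to 1.66 (border) and 0.137 to 0.274 (remote, where the exact permutation p was 0.0216 to 0.0390 without MI replicate 2, 4 or 5). Without TMM factors that remote difference was 0.244 CPM (exact permutation p = 0.0260). These Adra2a alternatives were chosen after seeing the data. Depth limits Adra2a in sham hearts, where 9 to 13 counts a zone were found.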
